A study of Homo sapiens with 18 samples.

Results

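To describe the aryl hydrocarbon receptor (AHR) pathway in steatotic hepatoma cells, the rows of 7 genes were taken from a gene count table of 36684 genes: AHR, ARNT, AHRR, TIPARP, CYP1A1, CYP1A2 and CYP1B1. The set was chosen by gene name after AHRR had been seen to be higher in the FUCO-1 libraries than in the Model libraries, so AHRR was selected on that difference. Its values in every comparison that holds Model or FUCO-1 libraries are therefore given as a description with no test, and counts of members past a test there are over the other 6 members. All 7 members passed the filter on low counts, CYP1A2 only through libraries of Model and the FUCO groups.

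The 18 RNA-seq libraries came from Hep3B, a human liver cancer cell line grown as a hepatocyte model, in 6 groups of 3. Con was the control, Model received free fatty acids (FFA) to load the cells with lipid, FUCO-0.5, FUCO-1 and FUCO-2 received FFA with fucoxanthin (FUCO), a carotenoid of brown seaweeds, at 0.5, 1 and 2 μM, and RES received FFA with Resmetirom, an agonist of thyroid hormone receptor-β used as the positive control. All groups but Con thus share the FFA, and no group with FUCO or RES alone was analysed here. The FFA concentration, the RES dose and the treatment times are not given for these libraries in the sources used here.

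AHR is a ligand-activated transcription factor that waits in the cytosol with HSP90 chaperones, enters the nucleus after binding planar aromatic compounds, some drugs or tryptophan metabolites, and pairs there with ARNT. The pair binds DNA sites with the core GCGTG near its target genes, of which CYP1A1 is the most widely used readout in liver cells. AHRR, a repressor that competes for ARNT, and TIPARP, an ADP-ribosyltransferase that limits AHR activity, are themselves AHR targets and close negative feedback loops. CYP1A1, CYP1A2 and CYP1B1 are monooxygenases that oxidize AHR ligands and other aromatic compounds, and CYP1A2 is the form that predominates in normal liver.

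To show what the 3 members with a GCGTG core just before their start look like, the 250 bases before the most upstream RefSeq start (GRCh38.p14) are printed 5′ to 3′ on the strand of the gene, with each core in capitals. A core on the other strand reads CACGC. Promoter entries matched 6 of the 7 members.
CYP1A1: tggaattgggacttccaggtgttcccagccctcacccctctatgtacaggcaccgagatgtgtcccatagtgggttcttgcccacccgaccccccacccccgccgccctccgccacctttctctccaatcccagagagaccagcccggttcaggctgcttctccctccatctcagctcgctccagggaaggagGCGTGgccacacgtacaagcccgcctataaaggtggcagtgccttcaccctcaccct
AHRR: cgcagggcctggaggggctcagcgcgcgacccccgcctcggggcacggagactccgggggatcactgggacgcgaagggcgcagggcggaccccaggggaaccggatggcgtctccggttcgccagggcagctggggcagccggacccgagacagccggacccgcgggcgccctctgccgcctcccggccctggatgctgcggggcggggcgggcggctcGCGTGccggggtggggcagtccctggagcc
TIPARP: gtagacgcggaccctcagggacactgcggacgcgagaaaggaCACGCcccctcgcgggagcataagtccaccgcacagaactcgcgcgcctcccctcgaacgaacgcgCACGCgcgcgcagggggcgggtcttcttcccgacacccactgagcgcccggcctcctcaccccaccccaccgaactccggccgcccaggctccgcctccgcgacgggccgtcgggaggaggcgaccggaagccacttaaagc
The CYP1A1 window lies at chr15:74725529-74725778 (minus strand), with 1 core beginning 57 bases before the start. The AHRR window lies at chr5:321464-321713 (plus strand), with 1 core beginning 30 bases before the start. Of the printed windows, the AHRR core alone is part of the longer string TNGCGTG, which overlaps it by construction. The TIPARP window lies at chr3:156674340-156674589 (plus strand) and holds 2 cores, both on the other strand, at 208 and 142 bases. Windows of AHR, ARNT and CYP1A2 hold no core within these 250 bases. Searched on both strands, GCGTG occurs in 32.2% of 35116 such windows over all genes and TNGCGTG in 4.52%, so a match is a description of the letters. CYP1B1 was not printed. The well-known response elements of CYP1A1 lie further upstream than this window.

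On the annotation, AHR spans chr7:17298652-17346147, ARNT chr1:150809713-150876599, AHRR chr5:321714-438285, TIPARP chr3:156674590-156706770, CYP1A1 chr15:74719542-74725528, CYP1A2 chr15:74748845-74756607 and CYP1B1 chr2:38067509-38076151. AHRR lies inside the readthrough gene PDCD6-AHRR (chr5:271646-438285), which shares 58.7% of the exon bases of AHRR and held 0 to 2 counts per library. How reads in shared exons were counted is not stated, so the absolute level of AHRR is uncertain. CYP1A1 and CYP1A2 are close paralogs whose reads can be hard to separate. TIPARP overlaps TIPARP-AS1, and AHR overlaps LOC101927609, which held 15 to 40 counts per library.

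Library totals ran from 16916688 to 23083498 counts. The 7 hepatocyte markers (ALB, AFP, APOA1, APOB, TTR, SERPINA1 and HNF4A) were detected in every group, and their summed level went from 56981 to 61317 CPM (counts scaled to the TMM-adjusted library size) in Con to 47246 to 48035 in Model, 31941 to 36155 in FUCO-2 and 13947 to 14190 in RES. Most of the sum was ALB (mean 40980 CPM in Con and 33912 in Model). Of the 7, 3 were called lower in Model than in Con and 0 higher. From Con to Model the means of TTR (179 to 209 CPM), SERPINA1 (2957 to 3475) and HNF4A (333 to 335) did not fall. Against Model, 6 of the 7 were called lower in FUCO-2 and 7 in RES. The 8 markers of immune, stromal and endothelial cells summed to 4.0 to 5.90 CPM in Con and to 9.24 to 23.8 in the groups with FFA. Most of that sum was LYZ (mean 3.16 CPM in Con, 15.9 in Model and 6.08 in RES). PTPRC, CD68, VWF and ACTA2 were too low to test, and 3 of the 4 tested markers were called higher in Model than in Con. The sum is thus mainly 1 gene and not a measure of other cell types. The part of these shifts in the results below was not tested. On a principal component map the RES libraries stood apart from all others, and Con replicate 1 lay nearer to the FFA groups than the other Con libraries did (21.0 against 34.6 and 31.8 on the second component, where Model ran from -1.94 to -0.28). CYP1A1 was 3.14 times and AHRR 2.23 times as high in Con replicate 1 as in the mean of the other Con libraries, so members' comparisons with Con, and the list counts, are also given without it where it moved a value or a call.

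Levels between genes can be compared only per length. Divided by the exon bases in kilobases, the mean over all 18 libraries was 14.9 CPM per kb for AHR, 12.2 for ARNT, 11.3 for TIPARP, 4.71 for CYP1A1, 0.448 for CYP1B1, 0.124 for AHRR and 0.0969 for CYP1A2. The receptor, its partner and TIPARP were thus the abundant members, and AHRR and CYP1A2 were scarce. These lengths are of GENCODE gene models, while the symbols of the count table look like those of RefSeq, so values per kb are approximate. The plot of levels by library shows how each member varied across groups.

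**Figure D1:**
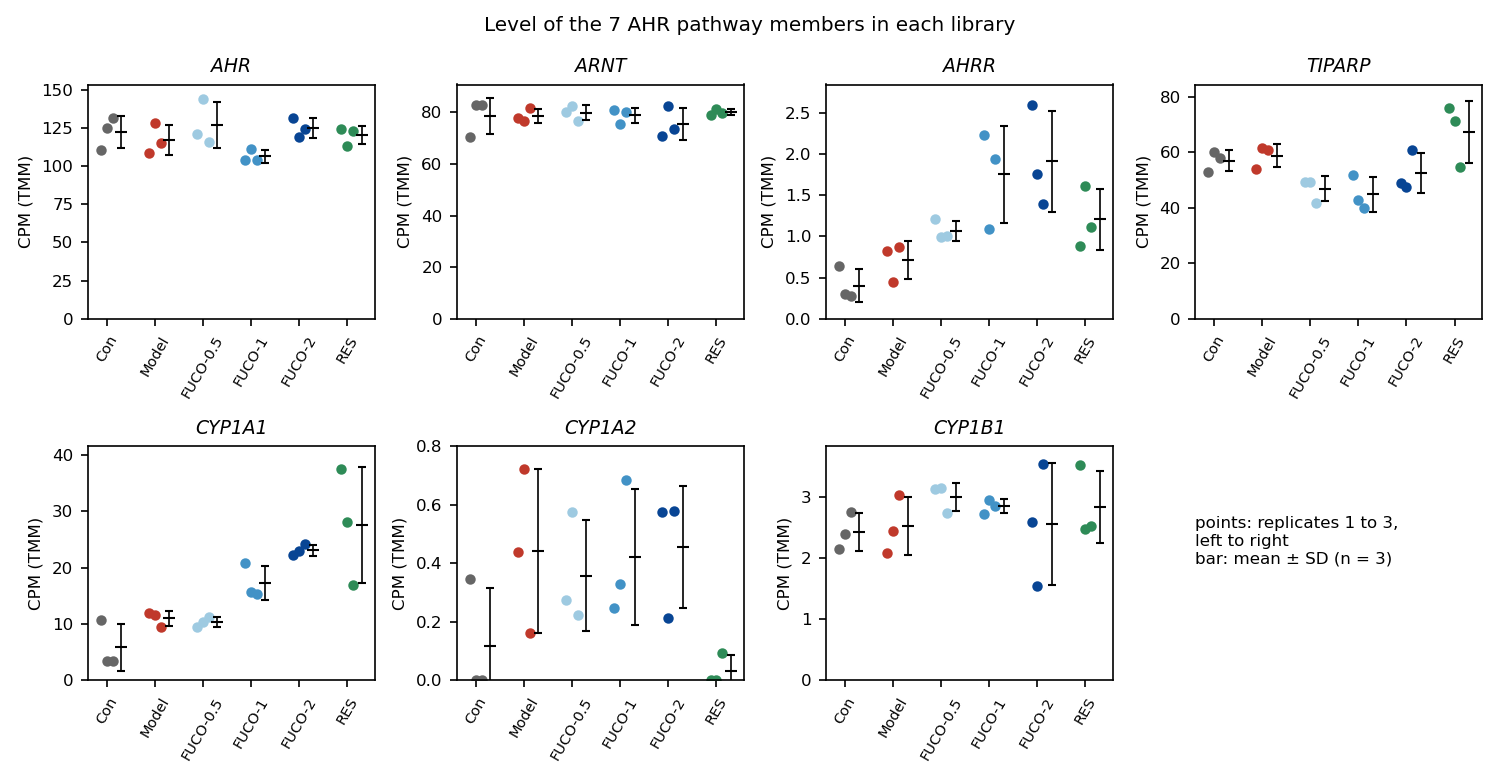
Level of each member in each library, in CPM after TMM scaling (vertical axes start at 0 and differ between panels), with the 6 groups on the horizontal axis. Points are replicates 1 to 3 and bars the mean and SD (n = 3). CYP1A1 climbs from 3.34 to 10.7 CPM in Con to 16.98 to 37.6 in RES, while ARNT stays between 70.6 and 82.8 in all libraries.

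CYP1A1, the usual readout of the pathway, was higher with the 2 μM dose of FUCO and with RES than in Model, and its level rose with FFA over Con. Its values were 10.7, 3.34 and 3.46 CPM in Con replicates 1 to 3. They were 11.9, 11.6 and 9.37 in Model, and 9.44, 10.3 and 11.3 in FUCO-0.5. FUCO-1 libraries held 20.8, 15.6 and 15.4 CPM, FUCO-2 libraries 22.3, 22.9 and 24.2, and RES libraries 37.6, 28.1 and 16.98. All FUCO-1, FUCO-2 and RES libraries lay above all Model libraries, FUCO-0.5 overlapped Model, and Con replicate 1 lay inside the Model range.

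In Model, CYP1A1 averaged 10.96 ± 1.39 CPM (SD, n = 3) against 5.83 ± 4.21 in Con, which is 0.91 higher on the log2 scale (SE 0.30 and adjusted p = 0.0372 by edgeR's quasi-likelihood test). Without Con replicate 1 the difference was 1.68 (adjusted p = 6.68e-05). The call was lost in 7 of 24 alternatives, and the highest adjusted p was 0.209, in the fit that omitted Con replicate 3. CYP1A1 was the 1 member called of the 6 tested in that comparison, in which 17.6% of all genes tested were called.

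Against Model, CYP1A1 did not differ detectably at 0.5 μM FUCO (log2 fold change -0.08, 95% interval -0.66 to 0.49). At 1 μM it was 0.66 above Model on the log2 scale (SE 0.27 with an adjusted p of 0.197). That difference passed in 3 of 24 alternatives, among them the fit of those groups only (adjusted p = 2.81e-05), in which the share of all genes called was not counted. With all libraries 0 of 6 members passed the threshold, where 3.21% of genes did. At 2 μM CYP1A1 rose 2.11-fold over Model (23.1 ± 0.966 CPM, log2 fold change 1.08, SE 0.26, adjusted p = 0.00482). It was the 1 called of 6 members, against 20.5% of all genes. The 2 μM rise passed in all 24 alternatives. At 0.5 μM, 0 of 6 members were called, against 1.45% of genes in the same edgeR test.

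Among the doses, CYP1A1 was 2.24-fold higher in FUCO-2 than in FUCO-0.5 (1.16 on the log2 scale with SE 0.26, adjusted p = 0.00392). This comparison was added after the levels had been seen. Of the 7 members CYP1A1 was the 1 called there, against 15.1% of genes. The smaller steps did not pass with all libraries and the filter. FUCO-1 exceeded FUCO-0.5 by 0.74 on the log2 scale (95% interval 0.19 to 1.29, adjusted p = 0.324) and FUCO-2 exceeded FUCO-1 by 0.42 (95% interval -0.10 to 0.93, adjusted p = 0.371), although the libraries of neighbouring doses did not overlap in either step. Without the filter on low counts the 2 differences hardly moved (0.75 and 0.42), but their adjusted p fell to 1.23e-06 and 0.00743. The share of all genes called in that unfiltered fit was not counted, so it is not taken as support for either step. The first step also passed in a fit of those groups only (adjusted p = 0.0120), in which the share of all genes called was not counted either. In those comparisons 0 of 6 members were called, against 0.00687% of genes (1 gene, with 1557 at an unadjusted p under 0.05) between FUCO-1 and FUCO-0.5 and 6.3% between FUCO-2 and FUCO-1.

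With RES, CYP1A1 reached 27.5 ± 10.3 CPM and rose 2.52-fold over Model (log2 fold change 1.33, SE 0.26, adjusted p = 0.000134). Its mean was above that of FUCO-2, but the ranges overlapped and the difference of 0.26 (95% interval -0.24 to 0.75) was not past the threshold. Leaving out RES replicate 1 turned that difference to -0.042. RES was the group in which the summed hepatocyte markers were lowest and in which 49.4% of all genes were called against Model, among them 2 of the 6 members.

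Over Con, CYP1A1 rose in FUCO-1 by 1.57 on the log2 scale (SE 0.29 and adjusted p = 0.000397), in FUCO-2 by 1.99 (SE 0.28 and adjusted p = 1.27e-05) and in RES by 2.25 (SE 0.28 and adjusted p = 2.58e-07). At 0.5 μM the difference of 0.83 (adjusted p = 0.0515) missed the threshold, and it was 1.60 (adjusted p = 0.000111) without Con replicate 1. Without that library the other 3 differences were 2.35, 2.77 and 3.02. In ascending order the groups ran Con, FUCO-0.5, Model, FUCO-1, FUCO-2 and RES, and none of the 5 steps between neighbours in this order passed the test.

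AHRR, the repressor of the pathway, was lowest in Con and highest in FUCO-1 and FUCO-2. Con libraries held 11, 5 and 5 AHRR counts, Model libraries 15, 8 and 16, and FUCO-0.5 libraries 22, 19 and 18. They were 45, 20 and 34 in FUCO-1, 45, 33 and 24 in FUCO-2, and 22, 30 and 24 in RES. Every library with FUCO or RES had a higher AHRR CPM than every Model library. Con and Model overlapped, because Con replicate 1 exceeded Model replicate 2.

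On the CPM scale AHRR averaged 0.402 ± 0.203 in Con, 0.711 ± 0.232 in Model and 1.07 ± 0.120 in FUCO-0.5 (SD, n = 3). The means were 1.75 ± 0.591 in FUCO-1, 1.91 ± 0.617 in FUCO-2 and 1.21 ± 0.371 in RES. The difference on which the gene was selected, FUCO-1 over Model, was 1.30 on the log2 scale (SE 0.34). Those of the other groups over the same Model libraries were 0.58 (SE 0.37) for FUCO-0.5, 1.41 (SE 0.34) for FUCO-2 and 0.73 (SE 0.36) for RES. Model over Con was 0.82 (SE 0.46), or 1.31 without Con replicate 1.

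In comparisons that hold neither Model nor FUCO-1 libraries, AHRR could be tested. It rose over Con in FUCO-0.5 by 1.40 on the log2 scale (SE 0.43 and adjusted p = 0.0190), in FUCO-2 by 2.24 (SE 0.39 and adjusted p = 0.000128) and in RES by 1.55 (SE 0.41 and adjusted p = 0.00233). Without Con replicate 1 these were 1.89 (adjusted p = 0.00853), 2.73 (adjusted p = 8.14e-05) and 2.03 (adjusted p = 0.00112). The call at 0.5 μM was lost in 3 of 24 alternatives, reaching an adjusted p of 0.0936 without Con replicate 3. These are differences from cells without FFA, so FFA and the added agent cannot be told apart in them. AHRR at 2 μM exceeded that at 0.5 μM by 0.84 (SE 0.31, adjusted p = 0.0762), and RES was 0.69 below FUCO-2 (SE 0.30, adjusted p = 0.0621). Neither difference passed the threshold. The libraries at 2 μM lay above all 0.5 μM libraries, and RES overlapped FUCO-2.

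The comparisons with Con share the Con libraries and also served the other members. In FUCO-0.5 against Con 1 of 7 members was called, against 21.9% of genes. It was 2 of the 6 tested members at 1 μM, against 18.3%, and 2 of 7 at 2 μM, against 24.8%. With RES 2 of 7 were called, against 57.3%. AHRR, which was not counted in FUCO-1, was among the called members in the other 3 groups. Apart from FUCO-1 against Con, the share of members called was near or below that of all genes in each comparison with RES, with Con or with FUCO-2 that gave a call, so these counts are not a result about the members as a set.

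**Figure D2:**
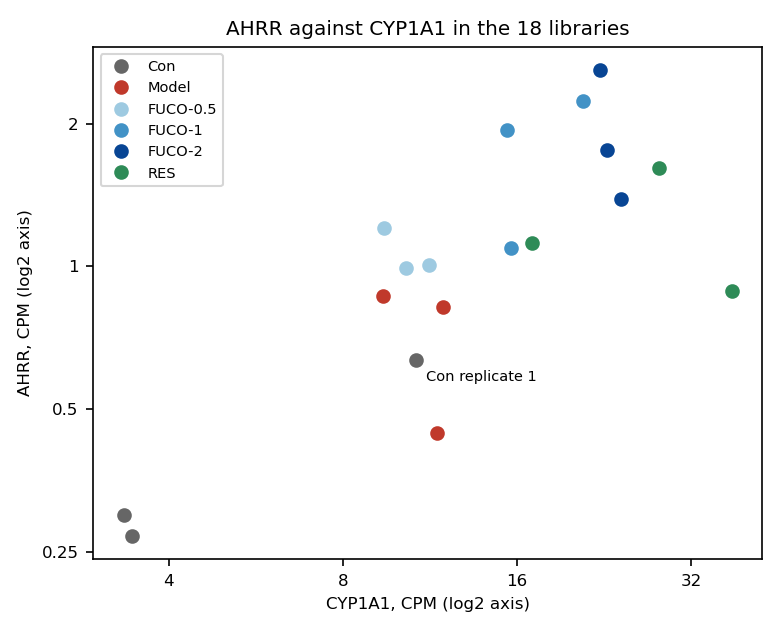
AHRR (vertical axis) against CYP1A1 (horizontal axis) in the 18 libraries, both in CPM on log2 axes, coloured by group. Con replicates 2 and 3 lie at the lower left, Con replicate 1 lies among the Model libraries, and the RES libraries reach the highest CYP1A1 (up to 37.6 CPM) at an AHRR level of 0.888 to 1.62 CPM.

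Across the 18 libraries AHRR and CYP1A1 had a Pearson correlation of 0.77 and a Spearman correlation of 0.65 on log2 CPM, the highest of any pair of members. The points share their group structure, which the scatter of AHRR against CYP1A1 shows. FUCO-2 held more AHRR and RES more CYP1A1 on average, with overlap in both genes. Other pairs with AHRR or CYP1A1 had Pearson correlations between -0.35 and 0.38.

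TIPARP, the other feedback gene, did not follow AHRR and CYP1A1. Its level was 52.9, 60.1 and 57.8 CPM in Con and 53.8, 61.6 and 60.8 in Model. It was 49.3, 49.3 and 41.5 in FUCO-0.5, 51.7, 42.8 and 39.7 in FUCO-1 and 49.0, 47.5 and 60.7 in FUCO-2. RES libraries held 75.8, 71.1 and 54.5 CPM. All FUCO-0.5 and FUCO-1 libraries lay below all Model and Con libraries, while FUCO-2 and RES overlapped both.

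TIPARP fell by 0.35 on the log2 scale in FUCO-1 against Con (SE 0.12 and adjusted p = 0.0398), a call lost in 4 of 24 alternatives. Each of the 4 omitted a single library, and the highest adjusted p was 0.170, in the fit that omitted FUCO-1 replicate 3. Against Model its log2 differences were -0.33 in FUCO-0.5 (SE 0.12 and adjusted p = 0.220), -0.39 in FUCO-1 (SE 0.12 and adjusted p = 0.0652) and -0.16 in FUCO-2 (adjusted p = 0.341). The 1 μM difference passed in 7 of 24 alternatives, with DESeq2 at an adjusted p of 0.0385. RES exceeded FUCO-2 by 0.36 (SE 0.11, adjusted p = 0.0122), with overlapping libraries, and the adjusted p was 0.0952 without RES replicate 1. Without Con replicate 1 the log2 fold change in FUCO-1 against Con was -0.39 (adjusted p = 0.0269). RES over Model was 0.19 (adjusted p = 0.166). Model over Con was 0.04 (95% interval -0.19 to 0.28).

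**Figure D3:**
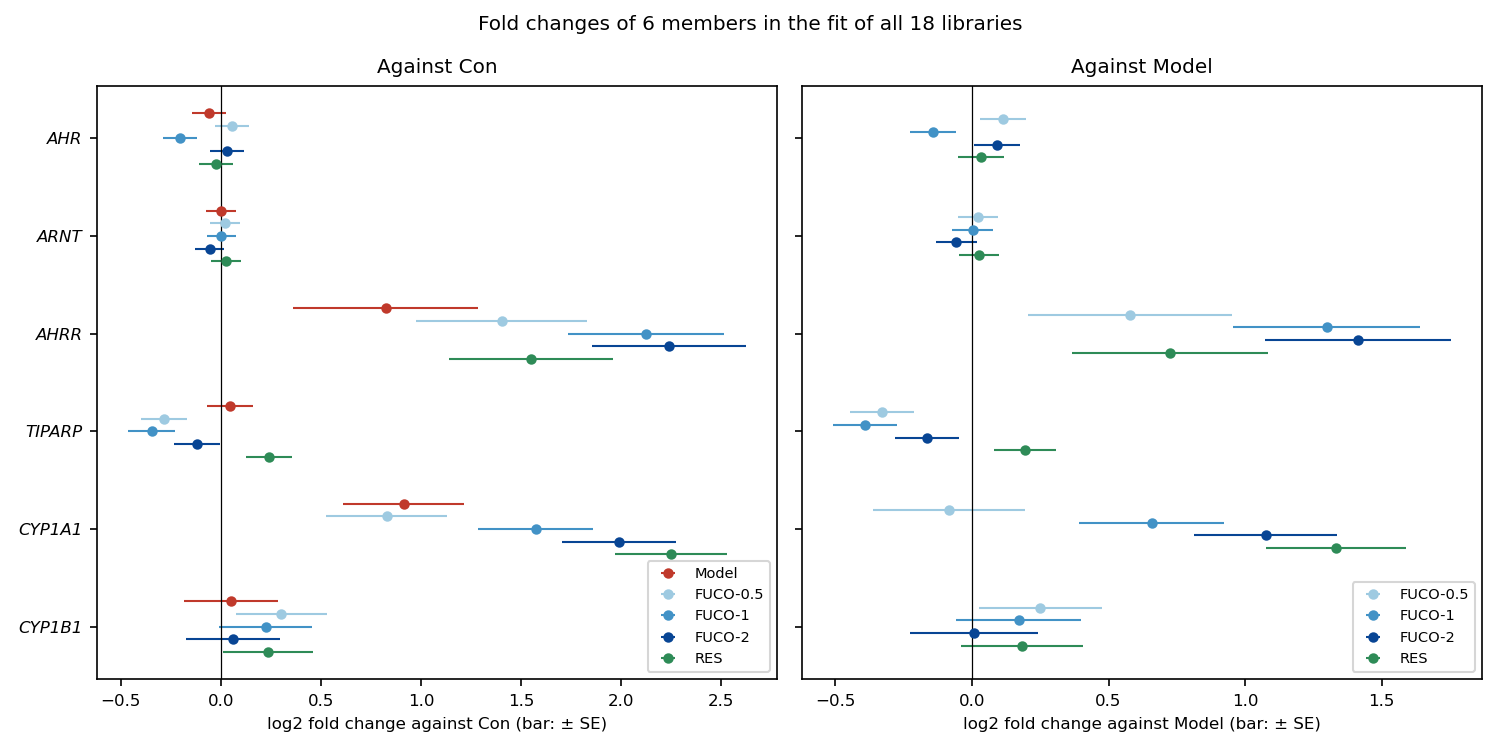
Log2 fold changes (horizontal axis) of 6 members against Con (left) and against Model (right), each point a group and each bar ± 1 SE from the fit of all 18 libraries. CYP1A2 is left out because RES and most Con libraries were at or near 0. AHRR and CYP1A1 lie to the right of 0 in nearly all groups, with CYP1A1 in FUCO-0.5 against Model at -0.08, while AHR and ARNT lie within 0.26 of 0.

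CYP1A2, the main CYP1 enzyme of normal liver, was near the detection limit throughout and was lower with RES. Con libraries held 6, 0 and 0 CYP1A2 counts, Model libraries 8, 13 and 3, and FUCO-0.5 libraries 5, 11 and 4. They were 5, 6 and 12 in FUCO-1, 10, 4 and 10 in FUCO-2, and 0, 0 and 2 in RES. All RES libraries lay below all libraries of Model and of each FUCO group, whereas Con overlapped RES.

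Summed over the libraries of a group, RES held 2 CYP1A2 counts and Model 24, a ratio of 0.0703 after scaling to depth (exact 95% counting interval 0.00806 to 0.283). Against the 24 counts of FUCO-2 the ratio was 0.0687 (0.00787 to 0.277). CYP1A2 passed the filter on low counts only through libraries of Model and the FUCO groups. Its lower level in RES than in Model and FUCO-2 is thus given as a description with no test. The gene stays in the counts of members called in both comparisons. CYP1A1 rose in RES against Model, while the counts of its paralog CYP1A2 were lower there. In RES against FUCO-2, CYP1A2 and TIPARP were the 2 of 7 members called, against 48.4% of genes. The hepatocyte marker sum was also lowest in RES, and its part in the level of CYP1A2 was not tested.

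Among the 3 doses and Model, CYP1A2 did not differ past the threshold in any comparison. Against Con the summed counts gave ratios of 3.84 for Model (1.53 to 11.5), 3.17 for FUCO-0.5, 3.60 for FUCO-1 and 3.93 for FUCO-2, and no comparison passed the test with all Con libraries (adjusted p from 0.0965 to 0.195). All 6 Con counts came from Con replicate 1. Leaving it out therefore sets Con to 0, and Model was then at least 2.59-fold higher, against a floor of 3 counts per library (adjusted p = 0.00765). FUCO-0.5, FUCO-1 and FUCO-2 were then at least 2.10-fold, 2.46-fold and 2.67-fold higher, each past the threshold. These calls follow from the removal of the only Con library with counts, so they are no support for a difference from Con.

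The receptor AHR, its partner ARNT and the extrahepatic enzyme CYP1B1 were not called in any of the 13 comparisons. AHR lay between 104 and 144 CPM in all libraries. Its group means ran from 106 ± 4.43 in FUCO-1 to 127 ± 15.1 in FUCO-0.5 (SD, n = 3), and its log2 fold changes from -0.26 to 0.23, with 95% intervals within -0.43 to 0.41. The lowest adjusted p was 0.1002. Without Con replicate 1, AHR was 0.27 lower on the log2 scale in FUCO-1 than in Con (adjusted p = 0.0303), the 1 call on these 3 genes in any alternative. ARNT ran from 70.6 to 82.8 CPM, with group means from 75.6 ± 6.24 in FUCO-2 to 80.1 ± 1.26 in RES and log2 fold changes from -0.08 to 0.08. CYP1B1 held 29 to 87 counts per library, with means from 2.43 ± 0.312 CPM in Con to 3.0 ± 0.230 in FUCO-0.5 and log2 fold changes from -0.24 to 0.30. The lowest of these was -0.55 without FUCO-2 replicate 3. The lowest and highest ends of the CYP1B1 95% intervals over the 13 comparisons were -0.71 and 0.77. They are not a detection limit, and smaller changes of CYP1B1 remain possible. Groups next to each other in order of level overlapped for each of these genes. The AHR libraries of FUCO-1 lay below all those of FUCO-0.5 (adjusted p = 0.285) and of FUCO-2 (adjusted p = 0.104), and neither difference passed the threshold.

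Other genes of the pathway were taken as 37 genes in 5 lists, of which 29 could be tested and 8 (ARNT2, GSTA2, CYP2S1, XDH, SERPINB2, IDO1, IDO2 and IL4I1) were too low. The lists were chosen with earlier results known. The plot of the lists shows Model against Con and each treatment against Model, which all share the Model libraries.

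**Figure D4:**
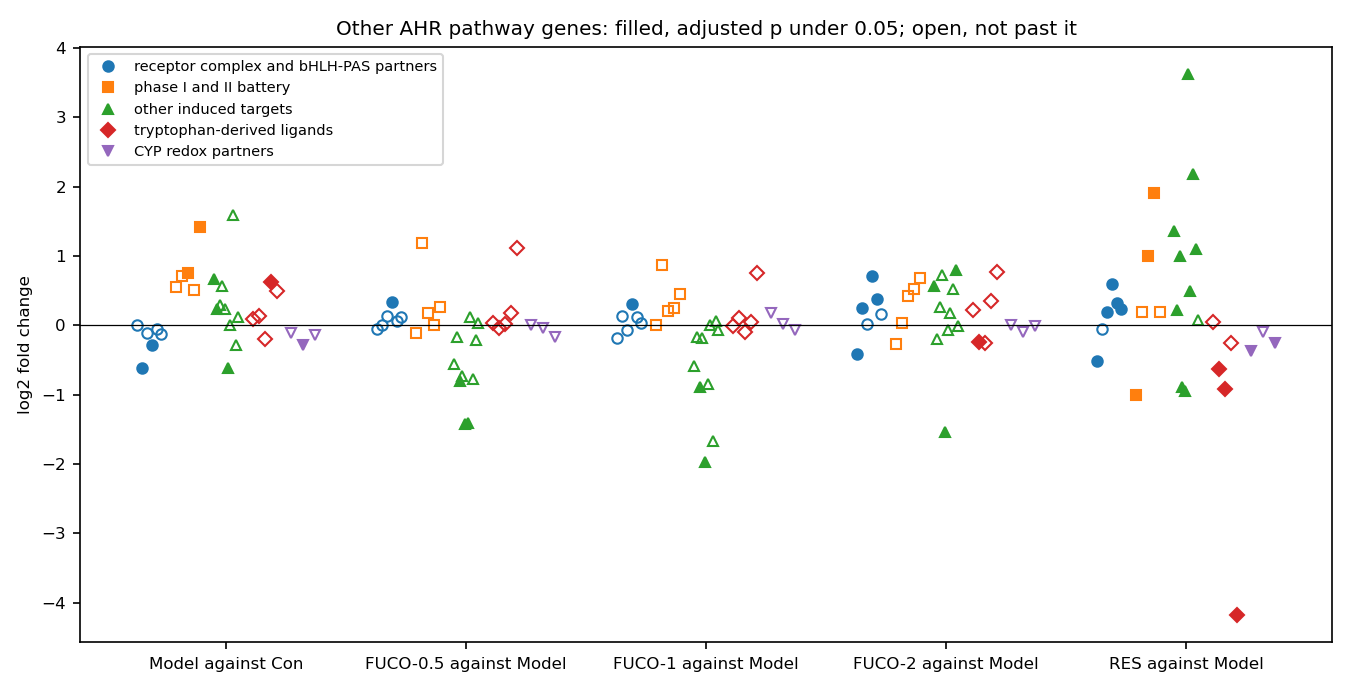
Log2 fold change (vertical axis) of the tested genes of 5 AHR pathway lists in 5 comparisons (horizontal axis), with colour and shape for the list. Filled symbols passed an adjusted p of 0.05 and open symbols did not. RES against Model has the most filled symbols, 22 of 29, with IGFBP1 at 3.62.

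With FFA, 5 of the 29 genes rose and 4 fell in Model against Con, where 17.6% of all genes were called (median log2 fold change 0.12, against 0.0011 over all genes). With Con replicate 1 left out, 8 rose and 3 fell. In the phase I and II battery, 2 of 5 rose and none of the 5 fell. NQO1, a quinone reductase, rose from 2.90 to 4.88 CPM (log2 fold change 0.76, adjusted p = 0.00598). UGT1A6, a glucuronosyltransferase, went from 0.252 to 0.675 CPM (log2 fold change 1.42). No Con library reached the minimum count of the filter for UGT1A6, so it passed only through libraries with FFA. Its rise over Con is given as a description with no test, although the gene stays in the counts of this comparison. UGT1A genes share exons, so their counts are uncertain. In the receptor complex list 2 of 6 fell, namely the chaperone HSP90AA1 (-0.29) and EPAS1 (-0.62), a hypoxia-inducible partner of ARNT. KYNU, an enzyme of kynurenine breakdown, rose by 0.62. Among other induced targets AREG (0.67) and CDKN1B (0.23) rose and IGFBP1 (-0.62) fell, the last a call lost without Con replicate 1 (-0.45, adjusted p = 0.176). CYB5R3, a reductase that serves cytochrome b5, fell by 0.28 on the log2 scale.

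With FUCO the battery did not pass the test against Model at any dose, with 0 of 5 called each time. At 0.5 μM, 1 of the 29 genes rose and 3 fell (median 0.0028), against 1.45% of all genes called. At 1 μM, 1 rose and 2 fell (median 0.010), against 3.21%. At 2 μM, 5 rose and 3 fell (median 0.18, against 0.0096 over all genes), against 20.5%. HSP90AA1 rose at every dose, with log2 fold changes of 0.34, 0.31 and 0.71, and HSP90AB1 rose at 2 μM (0.37). EPAS1 (0.25) rose and BMAL1, a clock partner of the same protein family, fell (-0.42) at 2 μM. HES1, a Notch target also induced by AHR in some cells, fell at every dose (-1.42, -1.97 and -1.54). EREG, an epidermal growth factor family ligand, fell at 0.5 and 1 μM (-0.80 and -0.88), IGFBP1 fell at 0.5 μM (-1.42), and SLC7A5 (0.80) and AREG (0.56) rose at 2 μM. AFMID, an enzyme of tryptophan breakdown, fell at 2 μM (-0.24).

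With RES, 13 of the 29 genes rose and 9 fell against Model, in a comparison with 49.4% of all genes called (median 0.19, against 0.0023). UGT1A1, which conjugates bilirubin, rose from 1.11 to 4.25 CPM (log2 fold change 1.91, adjusted p = 2.17e-07) and NQO1 from 4.88 to 9.77 CPM (1.00, adjusted p = 1.12e-05), while ALDH3A1, an aldehyde dehydrogenase, fell (-1.005). IGFBP1 rose from 9.80 to 121 CPM (3.62, adjusted p = 2.83e-13), and AREG (1.36) and SLC7A5 (1.10) rose too. PTGS2 (2.18) held 13 counts in each RES library and 0 to 4 in Model libraries. No library of another group reached the minimum count of 10, so PTGS2 passed the filter through RES alone. Its rise is given as a description with no test, although it stays in the counts of this comparison and of RES against Con. In that list of induced targets 7 of 10 rose and 2 fell, the latter being HES1 (-0.95) and FGF21 (-0.89), named after their values were seen. In the receptor complex list HSP90AA1 (0.60), HSP90AB1 (0.33) and PTGES3 (0.23) rose and BMAL1 (-0.52) fell. Of the tryptophan list, KMO (-0.92), AFMID (-0.63) and TDO2 fell, with TDO2, the liver enzyme that opens the tryptophan ring, at 0 to 1 count in RES libraries and 10 to 15 in Model. TDO2 passed the filter only through libraries of other groups than RES. Its fall is thus also given as a description with no test, although it stays in the counts of comparisons with RES. POR (-0.26) and CYB5A (-0.37), which pass electrons to CYP enzymes, fell as well.

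Against Con, 5 of the 29 genes rose and 7 fell at 0.5 μM, 4 rose and 4 fell at 1 μM, 10 rose and 5 fell at 2 μM, and 13 rose and 9 fell with RES. Of all genes, 21.9%, 18.3%, 24.8% and 57.3% were called in these comparisons. Leaving out Con replicate 1 gave counts of 6 and 5, 8 and 5, 11 and 4, and 14 and 8. The battery had 3 of 5 genes higher and none of the 5 lower in each of these 4 groups. NQO1 rose in all of them, by 0.94, 0.96, 1.18 and 1.76 on the log2 scale, and UGT1A6 by 1.69, 1.88, 2.10 and 1.61. Con libraries held 8, 4 and 1 UGT1A6 counts, and without replicate 1 these rises were 2.46, 2.65, 2.88 and 2.39. GSTA1, a glutathione transferase with close paralogs, was the other gene at 0.5 and 1 μM (1.89 and 1.59, or 2.74 and 2.44 without Con replicate 1, Con counts being 7, 2 and 2), and UGT1A1 at 2 μM and with RES (1.04 and 2.42). For UGT1A6 and GSTA1 no Con library reached the minimum count of 10, so both passed the filter only through libraries with FFA. Their rises over Con are given as a description with no test, although both genes stay in these counts. EPAS1 fell in all 4 groups, by 0.62, 0.49, 0.38 and 0.67. Between doses 0 of 29 were called for FUCO-1 against FUCO-0.5 by edgeR (1 by DESeq2), and 6 rose and 1 fell for FUCO-2 against FUCO-1, against 6.3% of all genes. In FUCO-2 against FUCO-0.5, 8 rose and 1 fell, against 15.1%, with FGF21 (1.45), IGFBP1 (1.34), AREG (1.11) and EREG (1.06) the largest. RES against FUCO-2 had 10 higher and 7 lower, against 48.4%.

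Genes whose log2 CPM followed a member most closely over the 18 libraries were named by the 3 highest Pearson correlations, as a description in which the points share groups and libraries. For CYP1A1 these were BHMT2 (0.96), a betaine pathway methyltransferase, FAH (0.96), the last enzyme of tyrosine breakdown, and UCHL1 (0.95), a ubiquitin hydrolase. BHMT2 ran from 35.3 ± 14.01 CPM in Con to 73.3 ± 11.4 in RES and FAH from 16.8 ± 7.17 to 33.4 ± 3.68 (SD, n = 3). For AHRR they were COPS7B (0.89), VPS9D1-AS1 (0.88) and GEMIN4 (0.87). VPS9D1-AS1 ran from 3.96 ± 1.69 CPM in Con to 9.11 ± 1.34 in FUCO-2. For TIPARP they were NORAD (0.89), SERTAD2 (0.87) and MCL1 (0.87), of which MCL1, a survival factor, was lowest in FUCO-1 (460 ± 28.7 CPM) and highest in RES (962 ± 124). For the others the closest genes were ENAH for AHR (0.83), PRRC2C for ARNT (0.85), DMKN for CYP1A2 (0.88) and PEX11A for CYP1B1 (0.79).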

How the data were processed

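Per the labels and the study's methods, poly(A) RNA of Hep3B cells was sequenced as paired-end reads in a single run, and the 18 libraries were assigned to 6 groups of 3 by title. The authors trimmed reads with fastp, aligned them with STAR to GRCh38.p14 and deposited raw gene counts from featureCounts, with no normalization. The strand setting and the treatment of reads in shared exons are not given in the sources used here. The methods call the libraries biological replicates. The members and lists were chosen with earlier results of these data known. A further gene of the pathway lists is not reported here.

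Counts were scaled by TMM, filtered with filterByExpr (minimum count 10), which left 14557 of 36684 genes, and tested with the quasi-likelihood test of edgeR 4.0.16 (R 4.3.3) on all 18 libraries at a Benjamini-Hochberg adjusted p of 0.05. The fit was tested on simulated data. Totals of 16916688 to 23083498 counts put the floor of 3 counts at 0.121 to 0.179 CPM, and this floor and the exact intervals on summed counts cover counting error only, while intervals from the fit include the spread between libraries. Named genes were the 7 members, up to 4 called genes per list and comparison with the largest fold change, the 3 most correlated genes per member, and overlapping genes. Correlations used log2 CPM with a prior count of 2. Alternatives were DESeq2 1.42.0, 2-group fits, RLE scaling, other filters, a replicate block, a fold threshold of 1 on the log2 scale, and leaving out each library. Exon lengths came from GENCODE and spans and promoters from RefSeq. The methods name GENCODE, but the symbols of the count table look like those of RefSeq. Same-numbered libraries of different groups had deviations that correlated between -0.20 and 0.19, with 7 of 45 pairs over 0.1, so the numbers were not taken to pair the samples.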

Additional observations from a re-analysis of the deposited data

How the results depend on the processing

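Of 1278 single-gene values under alternatives, 1214 were kept, 17 calls were lost, 37 were gained, 7 differences reversed and 3 moved by more than their error. A kept value held its direction and side of the threshold. For AHRR in comparisons with Model or FUCO-1 libraries it held its direction within 1 SE, with no threshold. Ranges over comparisons were not judged by a threshold either, so lost and gained calls cover the other values only. The number of members called was 1 in Model against Con, but 0 by DESeq2, by the fit of those 2 groups only and with the fold threshold, and 0 to 2 when a library was left out. FUCO-0.5 against Model gave 0 members, but 1 with 2 groups only and with no filter on low counts (0 to 0 with a library left out). FUCO-1 against Model gave 0, but 1 by DESeq2 and 2 with 2 groups only and with no filter (0 to 1). RES against Model gave 2, but 1 with 2 groups only and with at least 10 counts in every library, which drops CYP1A2 (2 to 3). FUCO-0.5 against Con gave 1, but 3 with no filter and 0 with 10 counts in every library, which drops AHRR (0 to 3). FUCO-1 against Con gave 2, but 1 with the fold threshold (1 to 4). FUCO-2 and RES against Con gave 2 each, but 1 with 10 counts in every library (2 to 3 in both). FUCO-1 against FUCO-0.5 gave 0, but 1 with 2 groups only and with no filter. FUCO-2 against FUCO-1 gave 0, but 1 with no filter. RES against FUCO-2 gave 2, but 1 with 2 groups only, with 10 counts in every library and with the fold threshold (1 to 3). FUCO-2 against FUCO-0.5 gave 1, but 2 with no filter (1 to 2). Beyond the filters named, the cause was not tested.

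With the replicate block, FUCO-0.5 against Con gave 2 members in place of 1, the added call being CYP1A1 (log2 fold change 0.89, adjusted p = 0.0144), and the pathway lists gave 5 genes in place of 3 in FUCO-1 against Model. The pathway lists gave 1 gene by DESeq2 and 0 by edgeR in FUCO-1 against FUCO-0.5. Without Con replicate 1, a setting chosen after seeing the data, the lists gave 13 genes in place of 8 in FUCO-1 against Con, and 11, 11, 15 and 22 in Model, FUCO-0.5, FUCO-2 and RES against Con.

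Differences near 0 reversed when a library was left out. TIPARP then ran from -0.0063 to 0.10 in Model against Con and from -0.18 to 0.016 in FUCO-1 against FUCO-0.5, AHRR from -0.16 to 0.34 in FUCO-2 against FUCO-1, CYP1A1 from -0.042 to 0.51 in RES against FUCO-2, and CYP1A2 from -4.17 to 2.49 in RES against Con, where both groups are near 0 and the fitted value depends on the prior count. The lowest of the 6 CYP1A2 differences among Model and the FUCO doses ran from -0.80 to 0.13, the latter without Model replicate 2. Counts of AHRR (5 to 45 per library) and CYP1A2 (0 to 13) limit what these libraries can show for either gene.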
